A study of Mus musculus with 45 samples.

Results

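The expression of 10 genes of transcription regulators, used as marks of stem-like, exhausted or effector T cells, was followed across 15 treatment groups: Tcf7, Lef1, Tox, Tox2, Eomes, Tbx21, Id2, Id3, Batf and Prdm1. They were taken by symbol from the rows of 2 expression tables, and all 10 of the 10 symbols had a row among the 47729 genes of each table. The samples were 45 tumours of CT26, a colon carcinoma line of BALB/c mice, grown in mice that all carried HuGEMM knock-ins of human PD-1 and human TIGIT, 2 inhibitory receptors of T cells. Serplulimab and pembrolizumab bind PD-1, HLX53 and tiragolumab bind TIGIT, and treatment began on day 8. In the experiment coded T2106, 6 groups of 3 tumours received HLX53, serplulimab, serplulimab with HLX53 at 5 mg/kg, serplulimab with HLX53 at 10 mg/kg, pembrolizumab with tiragolumab, or vehicle. In the experiment coded T2215, 9 groups of 3 received the 4 pairs of a PD-1 and a TIGIT antibody, each of the 4 antibodies alone, or vehicle. Doses other than the 5 mg/kg arm were 10 mg/kg. No group lacked the knock-ins, so all values come from mice with human receptors on their T cells.

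Tcf7, which encodes TCF-1, and Lef1 encode related DNA-binding partners of beta-catenin that keep naive, memory and stem-like T cells able to renew themselves. In chronic infection and tumours, cells with TCF-1 give rise to more differentiated cells, while TOX is needed for the exhausted state that follows lasting antigen contact. TOX2 is a relative of TOX. Eomes and Tbx21, which encodes T-bet, are T-box factors of cytotoxic T cells and natural killer cells. ID2 and ID3 bind E proteins and keep them off DNA, ID2 in effector and ID3 in memory precursor cells. BATF is an AP-1 family factor that works with IRF4, and Prdm1 encodes BLIMP-1, a repressor of effector T cells and plasma cells. Several of these genes are also used outside T cells: Id2 and Id3 in endothelium and stroma, Prdm1 in macrophages, plasma cells and skin, and Lef1 in skin and in tumour cells with Wnt signalling.

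The tables hold values in FPKM (fragments per kilobase of transcript, scaled to the mapped reads of each library), so levels of different genes can be set side by side. Read depth is unknown, and each library listed between 12918 and 14448 genes at 0.5 FPKM or more. RNA came from whole tumours, so fewer cells of a type and less RNA per cell cannot be told apart. Markers of the colon carcinoma were uneven: Krt20 had a median of 83.5 FPKM in T2106 and 84.2 FPKM in T2215, while the intestinal factor Cdx2 stayed at or below 0.331 and 0.638 FPKM. Of the T2106 tumours, 4 stood apart by fat genes, with an adipocyte marker score of 5.57 to 5.86 against 0.661 to 3.57 in the other 14. They were all 3 tumours given serplulimab with HLX53 at 10 mg/kg and replicate 2 of the 5 mg/kg arm. The score of a list in a tumour averages log2(FPKM + 0.5) across those of its genes that were tested. In T2215 replicate 1 of the serplulimab group stood apart by a skeletal muscle score of 10.2, where the next tumour had 4.39.

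Positions are on GRCm38, by the GENCODE M21 annotation. Tcf7 spans chromosome 11 from 52252371 to 52283014 (minus strand), and Lef1 spans chromosome 3 from 131110471 to 131224356 (plus). Tox spans chromosome 4 from 6686353 to 6991557 (minus), and Tox2 spans chromosome 2 from 163203125 to 163324170 (plus). Eomes spans chromosome 9 from 118478212 to 118486132 (plus), and Tbx21 spans chromosome 11 from 97098071 to 97115331 (minus). Id2 spans chromosome 12 from 25093799 to 25097140 (minus), and Id3 spans chromosome 4 from 136143497 to 136145755 (plus). Batf spans chromosome 12 from 85686669 to 85709087 (plus), and Prdm1 spans chromosome 10 from 44437177 to 44528501 (minus). Exons of Lef1, Tox and Eomes overlap exons of Gm43352, Gm11802 and Gm33460 on the other strand; whether reads were counted by strand is unknown here, so reads of such a pair may not be separated.

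The 250 bases before the start sites of the 9 members found in the RefSeq promoter table (GRCm38.p6) were searched on both strands. The TCF and LEF pattern was CTTTGNT and the AP-1 and BATF pattern was TGANTCA, with N as any base. Such patterns are looser than the sites these factors prefer, and sites of the other factors were not searched. Tox was not matched in that table. The 2 T-box genes each held 1 match to the TCF and LEF pattern, with the letters AGCAAAG. It began 79 bases before the Eomes start and 18 bases before the Tbx21 start. At least 1 such match was held by 16.0% of the 32851 RefSeq start sites. Tox2 held 1 before 2 of its 5 start sites. Prdm1 held a match to the AP-1 and BATF pattern, TGAATCA, 48 bases before its RefSeq start, and 6.75% of start sites held such a match. That start lies inside the GENCODE span of Prdm1, away from the span's first base on the minus strand, 44528501. The other 5 members held neither pattern. A match of this kind describes the letters and does not show a bound site. The 3 promoters with a match and a single start are printed with the match in capitals, Eomes at chr9:118477939-118478188 (plus strand), Tbx21 at chr11:97115332-97115581 (minus) and Prdm1 at chr10:44458749-44458998 (minus).
Eomes: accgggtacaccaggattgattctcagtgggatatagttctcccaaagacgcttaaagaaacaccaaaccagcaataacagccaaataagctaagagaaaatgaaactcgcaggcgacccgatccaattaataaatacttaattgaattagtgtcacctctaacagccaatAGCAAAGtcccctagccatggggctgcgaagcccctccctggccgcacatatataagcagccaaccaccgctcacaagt
Tbx21: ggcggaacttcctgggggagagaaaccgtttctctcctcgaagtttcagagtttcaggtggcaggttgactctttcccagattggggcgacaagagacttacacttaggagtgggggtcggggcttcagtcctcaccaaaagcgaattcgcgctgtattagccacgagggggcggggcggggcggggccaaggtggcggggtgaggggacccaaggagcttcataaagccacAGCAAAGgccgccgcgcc
Prdm1: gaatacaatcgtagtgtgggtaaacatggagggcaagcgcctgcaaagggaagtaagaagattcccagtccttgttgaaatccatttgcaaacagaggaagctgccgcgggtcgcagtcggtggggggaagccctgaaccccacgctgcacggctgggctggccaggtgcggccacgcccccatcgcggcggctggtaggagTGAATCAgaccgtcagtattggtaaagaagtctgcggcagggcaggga

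The 10 genes covered a wide range of levels, and their order was nearly the same in both experiments. Id2 was the most abundant, with a median of 29.3 FPKM over the 18 tumours of T2106 and 21.0 FPKM over the 27 tumours of T2215. Id3 followed with 4.77 and 5.05 FPKM, Batf with 3.80 and 4.15 FPKM, and Prdm1 with 3.72 and 3.07 FPKM. Id2 exceeded Id3 in 18 of 18 and 26 of 27 tumours, whereas Batf exceeded Prdm1 in only 11 of 18 and 20 of 27. The T-box and TCF genes lay lower: Eomes at 2.39 and 1.41 FPKM, Lef1 at 1.95 and 2.29 FPKM, Tbx21 at 1.25 and 0.768 FPKM, and Tcf7 at 0.905 and 1.03 FPKM. Neighbours among them often changed places, as Eomes was above Lef1 in 10 of 18 tumours of T2106 and above Tcf7 in 14 of 27 tumours of T2215. Tox, at 0.380 and 0.221 FPKM, and Tox2, at 0.130 and 0.200 FPKM, were the least abundant. Tox reached 0.5 FPKM in 6 of 18 and 4 of 27 tumours, and Tox2 in 4 of 18 and 8 of 27. Tox was above Tox2 in 13 of 18 and 12 of 27 tumours. All 10 genes passed the filter for testing, which asked for 0.5 FPKM in 3 or more libraries, but Tox2 passed in T2106 only through the 4 tumours that stood apart by fat genes.

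**Figure D1:**
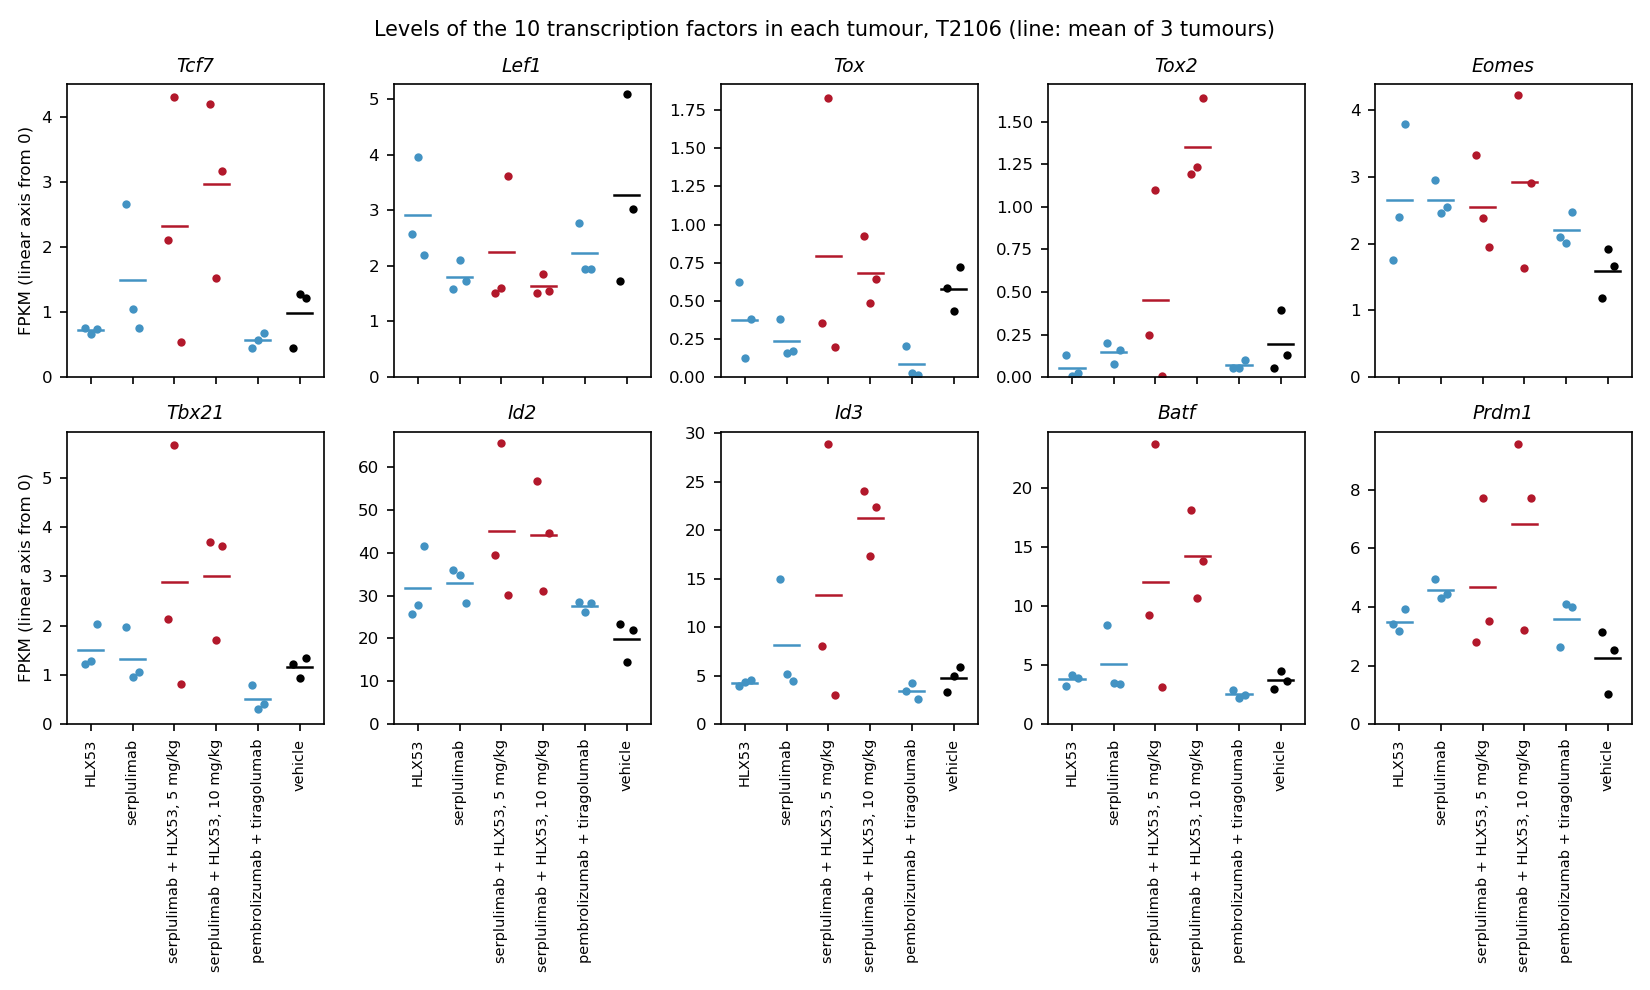
FPKM of the 10 genes in each of the 18 tumours of T2106 (1 point per tumour, line at the mean of 3), with the serplulimab and HLX53 pairs in red, the other antibody groups in blue and vehicle in black. Each panel has its own axis from 0; in the red 10 mg/kg column Tox2, Id3 and Batf lie wholly above vehicle, while in the 5 mg/kg column replicate 2 is the highest of all 18 tumours for Id2 (65.7 FPKM), Id3 (28.8 FPKM) and Batf (23.8 FPKM).

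Of the 20 comparisons made, the pair of serplulimab and 10 mg/kg HLX53 set against vehicle in T2106 had the largest share of called genes. By limma, 5 of the 10 factors rose and 0 fell at an adjusted p under 0.05 (Benjamini-Hochberg over all 15070 genes tested), and 44% of all genes tested were called, 23.4% higher and 20.6% lower. The factors that rose were Id2, Id3, Batf, Prdm1 and Tox2. Tcf7 and the T-box gene Tbx21 lay above vehicle in every tumour without passing, and Lef1 was the only factor with a fitted difference below 0. The median log2 difference over the 10 was 1.16, where the median over all genes tested was −0.04.

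Id3 and Batf had the largest fitted differences of the 10 factors, and Id2, the most abundant factor, is described beside its relative Id3. Id3 had 24.0, 17.3 and 22.3 FPKM in the tumours given the pair, against 3.28, 4.99 and 5.89 FPKM with vehicle. The groups did not overlap, and the difference was 2.08 on the log2(FPKM + 0.5) scale (SE 0.57, adjusted p = 0.016 by limma). Id2 had 56.7, 31.0 and 44.5 FPKM with the pair and 23.4, 14.4 and 21.9 FPKM with vehicle. It rose by 1.12 (SE 0.28, limma adjusted p = 0.0128), again with no overlap. Batf had 18.2, 10.7 and 13.8 FPKM with the pair, against 2.96, 4.52 and 3.64 FPKM with vehicle. Its lowest treated tumour was above every vehicle tumour, with a log2 difference of 1.80 (SE 0.495, limma adjusted p = 0.0161).

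Prdm1, the BLIMP-1 gene, had 9.55, 3.22 and 7.72 FPKM with the pair and 3.16, 1.03 and 2.54 FPKM with vehicle. The groups were separated only narrowly, by replicate 2 of the pair and replicate 1 of vehicle, and the log2 difference was 1.39 (SE 0.40, limma adjusted p = 0.0176). Tox2 had 1.19, 1.23 and 1.64 FPKM with the pair, against 0.0538, 0.396 and 0.132 FPKM with vehicle. Its log2 difference was 1.44 (SE 0.31, limma adjusted p = 0.0101). Because Tox2 was tested only through the tumours in which it was high, its call adds nothing to the count beyond a description.

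Among the genes of stem-like cells, Tcf7 had 4.20, 1.52 and 3.17 FPKM with the pair, against 0.449, 1.28 and 1.22 FPKM with vehicle. All 3 treated tumours were above vehicle, replicate 2 by little, and the log2 difference of 1.19 (SE 0.48) had a limma adjusted p of 0.0567. Its relative Lef1 had 1.51, 1.85 and 1.55 FPKM with the pair and 1.72, 5.08 and 3.02 FPKM with vehicle. The treated tumours were close together and the vehicle tumours spread, with a log2 difference of −0.73 (SE 0.32, limma adjusted p = 0.0753). Tbx21, the T-bet gene, had 3.69, 1.71 and 3.61 FPKM with the pair and 1.21, 0.928 and 1.34 FPKM with vehicle, a log2 difference of 1.03 (SE 0.435, limma adjusted p = 0.0652). Eomes had 4.23, 1.63 and 2.91 FPKM with the pair and 1.19, 1.92 and 1.67 FPKM with vehicle. Its groups overlapped, and the log2 difference was 0.65 (SE 0.28, limma adjusted p = 0.069). Tox had 0.923, 0.488 and 0.644 FPKM with the pair, within or near the 0.587, 0.430 and 0.720 FPKM of vehicle, a log2 difference of 0.13 (95% interval −0.64 to 0.90, limma adjusted p = 0.777). In all, 7 of the 10 factors lay above vehicle in every treated tumour, as did 31.6% of all genes tested.

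Marker genes of many cell types moved in the same comparison, and the counts below stand beside 23.4% of all genes tested called higher and 20.6% lower. Of the T cell markers 7 of 20 rose and none fell, led by Cd4, Trbc1, Icos and Cd2, and the T cell score was 2.41 to 3.67 in tumours given the pair, against 1.47 to 1.94 with vehicle. All 11 adipocyte markers rose, with scores of 5.57 to 5.86 in the pair and 0.821 to 3.57 in vehicle. All 8 fibroblast markers rose, with scores of 7.38 to 7.74 against 3.64 to 4.94 in vehicle, and all 7 macrophage markers rose, with scores of 7.65 to 8.36 against 6.23 to 6.59 in vehicle. The endothelial markers rose in 7 of 9 cases, the plasma cell markers in 4 of 5 and the B cell markers in 4 of 4 tested, and the 8 cell cycle genes all fell. Of the dendritic cell markers 4 of 5 rose, and of the carcinoma and epithelial markers 6 of 7 tested rose and 1 fell. The 1 that fell was Krt20, the abundant carcinoma marker given above (−2.74 on the log2 scale, limma adjusted p = 0.0201). Of the natural killer cell markers 1 of 4 tested rose, of the keratinocyte markers 2 of 3, and of the skeletal muscle markers 0 of 1. Across the 18 tumours of T2106 the lowest value of any T cell marker tested was 0.102 FPKM (Ubash3a), of any fibroblast marker 0.178 FPKM (Fap) and of any macrophage marker 8.65 FPKM (Adgre1). Some adipocyte markers were close to 0 in the lowest tumour, such as Adipoq, the adiponectin gene, which ranged from 0.000439 to 80.6 FPKM. The part of these cell types in the result was not tested. In the fits with a covariate that follow, the T cell and adipocyte scores of the pair lay wholly above those of vehicle. Such fits cannot tell the score apart from treatment.

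When the T cell score entered the model as a covariate, 0 of the 10 factors passed and 6.28% of all genes did. Id3 then had a log2 difference of 0.90 (adjusted p = 0.11), Batf 0.75 (0.0965), Id2 0.58 (0.0832), Prdm1 0.84 (0.172) and Tox2 0.93 (0.0517), all by limma. With the adipocyte score as the covariate 0 of the 10 passed and 0.0133% of all genes did. Batf then had −0.007, Id3 0.08, Tox2 0.31, Id2 0.67 and Prdm1 1.17.

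The call count also leaned on single tumours of the pair. Without replicate 1, 1 of the 10 factors passed, as did 3.35% of all genes, and without replicate 3, 1 passed, as did 6.4% of all genes. Without replicate 2, in which all 5 called factors but Tox2 were lowest, 8 passed, as did 49.1% of all genes.

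Other genes listed for T cell states moved beside the factors, in a comparison where 23.4% of all genes tested were called higher and 20.6% lower. RNA came from whole tumours, in which macrophage, endothelial and B cell markers rose as well. These counts therefore do not place a change in T cells. Of 9 stem-like T cell genes 6 rose and none fell, led by S1pr1, Ccr7, Il7r and Cxcr5, receptors of lymphocyte traffic and survival, with a list median of 1.21 on the log2 scale. Of 10 exhausted T cell genes 5 rose, led by Havcr2, Entpd1 and Cd38, with a list median of 1.29. The 1 that fell was Tigit, by its mouse symbol in mice that carry human TIGIT (−1.56, limma adjusted p = 0.0258). Of 11 effector genes 8 rose, led by Ifng, Klrg1, Gzmb and Gzmk, with a median of 1.27. Of 18 transcription factors known to work with the members, 8 rose and 3 fell, with a median of 0.57. The one with the smallest p among those that rose was Myb, a factor of self-renewing T cells (0.98, limma adjusted p = 0.0122), and Irf4, the partner of BATF, picked out after its value was seen, rose too (1.46, limma adjusted p = 0.0147). The list holds 2 called NR4A genes, orphan nuclear receptors induced by antigen contact, of which Nr4a2 fell (−1.30, limma adjusted p = 0.012) and Nr4a3, named after its value was seen, rose (1.18, limma adjusted p = 0.0176). The others that fell were the E protein genes Tcf12 (−1.03, limma adjusted p = 0.0073) and Tcf3 (−0.64, limma adjusted p = 0.0115), whose products ID2 and ID3 bind. Of 7 tested relatives in the same families 3 rose, which were Id4, Tcf7l1 and Batf3. These lists, like the factors, were chosen with earlier results of these data known.

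**Figure D2:**
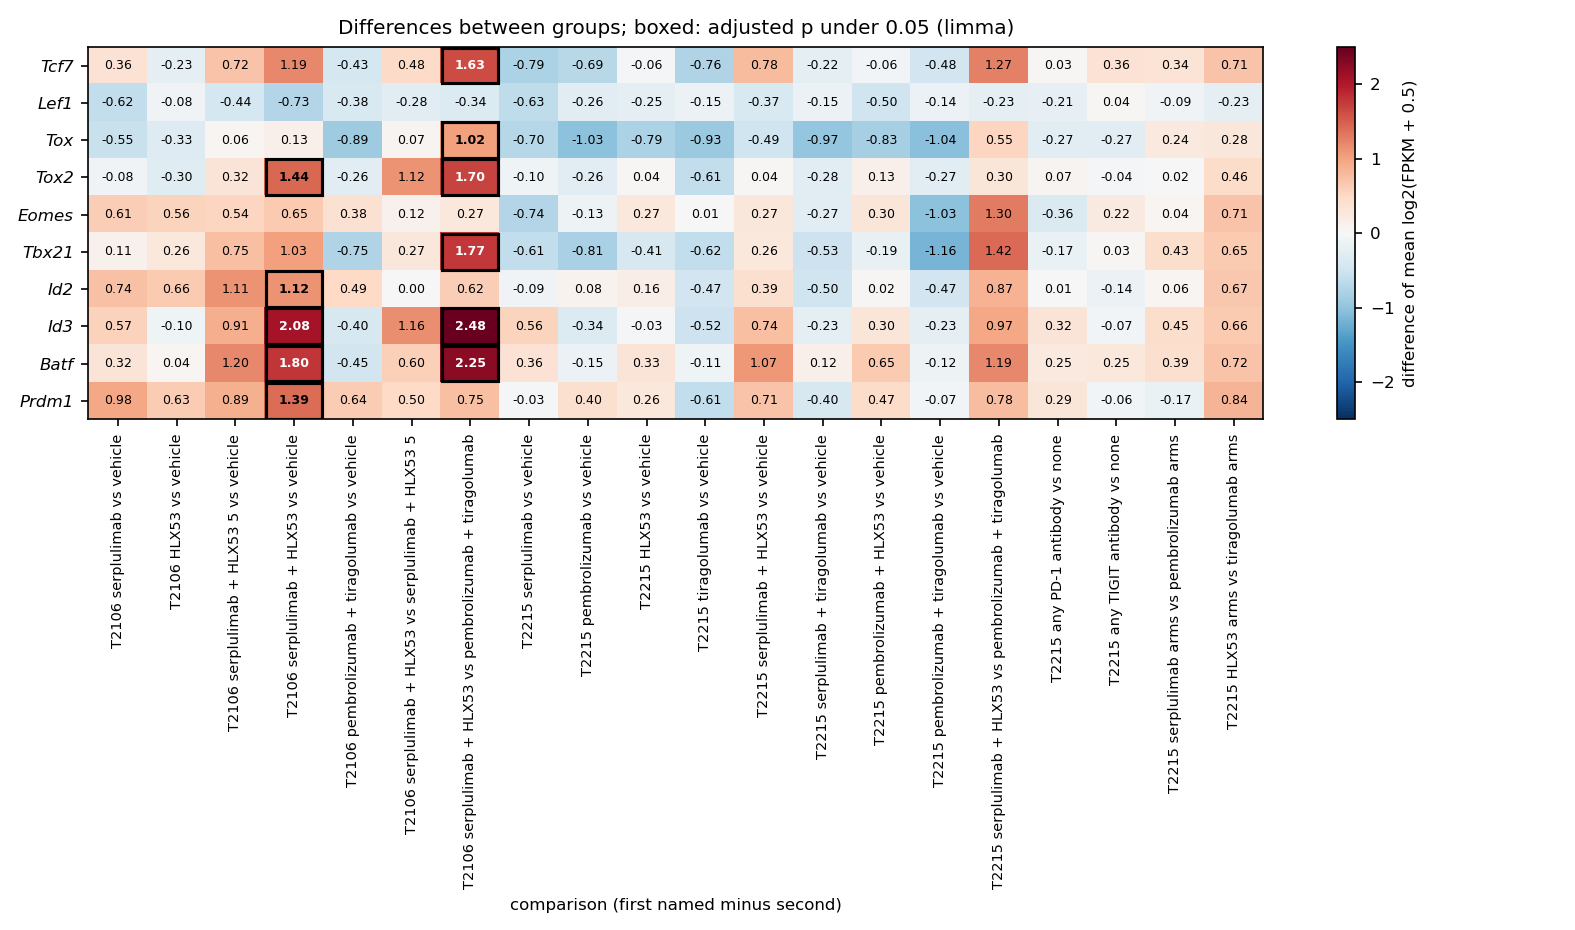
Difference of mean log2(FPKM + 0.5) for each factor (rows) in each of the 20 comparisons (columns, the first group named minus the second), with a box where limma's adjusted p was under 0.05. Boxes appear only in 2 T2106 columns, both of the 10 mg/kg pair of serplulimab and HLX53: 5 boxes where it is set against vehicle and 6 where it is set against pembrolizumab with tiragolumab.

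Set against the other antibody pair, serplulimab with HLX53 at 10 mg/kg had 6 of the 10 factors higher than pembrolizumab with tiragolumab in T2106 and 0 lower, where limma called 42.6% of all genes tested, 25.8% of all genes as higher and 16.8% as lower. They were Id3, Batf, Tbx21, Tox2, Tcf7 and Tox. Batf had 2.94, 2.22 and 2.49 FPKM in the tumours given pembrolizumab and tiragolumab, all below its values with serplulimab and HLX53 given above, and differed by 2.25 on the log2 scale (SE 0.495, limma adjusted p = 0.00797). Id3 had 3.38, 4.26 and 2.64 FPKM with pembrolizumab and tiragolumab, a log2 difference of 2.48 (SE 0.57, limma adjusted p = 0.00891). Tbx21 had 0.789, 0.316 and 0.403 FPKM there, the lowest group mean of that gene in T2106, and differed by 1.77 (SE 0.435, limma adjusted p = 0.0102). Tcf7, with 0.442, 0.570 and 0.680 FPKM under pembrolizumab and tiragolumab, differed by 1.63 (SE 0.48, limma adjusted p = 0.0198). Each of these genes was separated from the other group in all tumours.

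The exhaustion factor Tox had 0.205, 0.0292 and 0.0140 FPKM with pembrolizumab and tiragolumab. It differed by 1.02 (SE 0.36, limma adjusted p = 0.0361), and lost the call with a pseudocount of 1 (adjusted p = 0.0524). Tox2 differed by 1.70 (SE 0.31, limma adjusted p = 0.00654), with the same limit of the filter as before. Id2 was above in all 3 tumours but did not pass (0.62, limma adjusted p = 0.0824), and 7 of the 10 factors lay wholly above, as did 34.4% of all genes. Of the T cell markers 19 of 20 were higher in the serplulimab and HLX53 tumours, whose scores were 2.41 to 3.67, against 0.512 to 0.924 with pembrolizumab and tiragolumab, and all 11 adipocyte markers were higher. With either the T cell or the adipocyte score as a covariate 0 of the 10 factors passed, and of all genes 0.00664% and 0% did. Neither score overlapped between the groups, so these fits cannot tell the score apart from treatment. Without replicate 1 of the serplulimab and HLX53 group 3 of the 10 passed, as did 10.8% of all genes. Without replicate 3 of that group 4 passed (15.6% of all genes), as did 4 without replicate 2 of the other pair (20.4%), and without replicate 2 of serplulimab and HLX53 8 did (48.4%).

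The other T2106 arms gave no call among the factors. By limma 0 of 10 passed for serplulimab against vehicle (0% of all genes called, 3 factors at an unadjusted p under 0.05, where 8.49% of all genes were) and for HLX53 against vehicle (0.00664% called, 1 factor at an unadjusted p under 0.05, as were 3.86% of all genes). The same held for pembrolizumab with tiragolumab against vehicle (0% called, 1 factor at an unadjusted p under 0.05, as were 5.14% of all genes) and for the 5 mg/kg pair against vehicle (1.02% called, 3 factors at an unadjusted p under 0.05, as were 28.7% of all genes). Without the mean-variance trend the count was 0 in each as well. Id2 had the smallest p of the factors in 3 of these 4 comparisons. It had 36.1, 34.8 and 28.2 FPKM with serplulimab, 25.7, 27.8 and 41.6 FPKM with HLX53, 39.4, 65.7 and 30.1 FPKM with the 5 mg/kg pair, and 28.5, 26.2 and 28.2 FPKM with pembrolizumab and tiragolumab. Every one of these tumours was above the vehicle range of 14.4 to 23.4 FPKM. Of all genes tested, 6.24%, 5.33%, 5.84% and 7.41% lay wholly above vehicle in these groups, in the same order. All 4 groups were set against the same vehicle tumours, so they do not repeat one another independently. The log2 differences from the shared vehicle group were 0.74 (limma adjusted p = 0.516) with serplulimab, 0.66 (1) with HLX53, 1.11 (0.0568) with the 5 mg/kg pair and 0.49 (0.967) with pembrolizumab and tiragolumab. With the T cell score as a covariate Id2 passed by limma for serplulimab (0.71, adjusted p = 0.0445) and for the 5 mg/kg pair (0.80, adjusted p = 0.0302). The shares of all genes called in those fits are not given here, so these calls are only a description. Without the covariate, 0 of the 20 tested T cell markers were called in either comparison, where 0% and 1.02% of all genes were. For pembrolizumab and tiragolumab the smallest p belonged to Tox, whose treated tumours all lay below vehicle (−0.89, limma adjusted p = 0.933).

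The 2 doses of HLX53 beside serplulimab gave no call among the factors when set against each other. Against 5 mg/kg, the 10 mg/kg group had 9 of 10 fitted differences above 0, as did 58.3% of all genes, and 0 of 10 passed by limma (0.139% of all genes called, 1 factor at an unadjusted p under 0.05, as were 11% of all genes). Tox2 had the smallest p, with 1.19, 1.23 and 1.64 FPKM at 10 mg/kg and 0.248, 1.10 and 0.00684 FPKM at 5 mg/kg, a log2 difference of 1.12 (SE 0.31, limma adjusted p = 0.243). The 5 mg/kg group was split: Batf had 9.25, 23.8 and 3.18 FPKM, Id3 8.03, 28.8 and 3.03 FPKM, and Tbx21 2.14, 5.66 and 0.821 FPKM in its replicates 1, 2 and 3. Replicate 2, one of the 4 tumours that stood apart by fat genes, was the highest of the group for all 10 factors except Lef1 and Eomes. Without it 3 of 10 passed between the doses, where 38.9% of all genes did. Tox2 was one of the 3 (1.58), but with that tumour left out it reached 0.5 FPKM only in the 10 mg/kg group, so its call there is a description. Without replicate 3 of the 5 mg/kg group 5 of 10 passed for that group against vehicle, and 40.4% of all genes did.

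**Figure D3:**
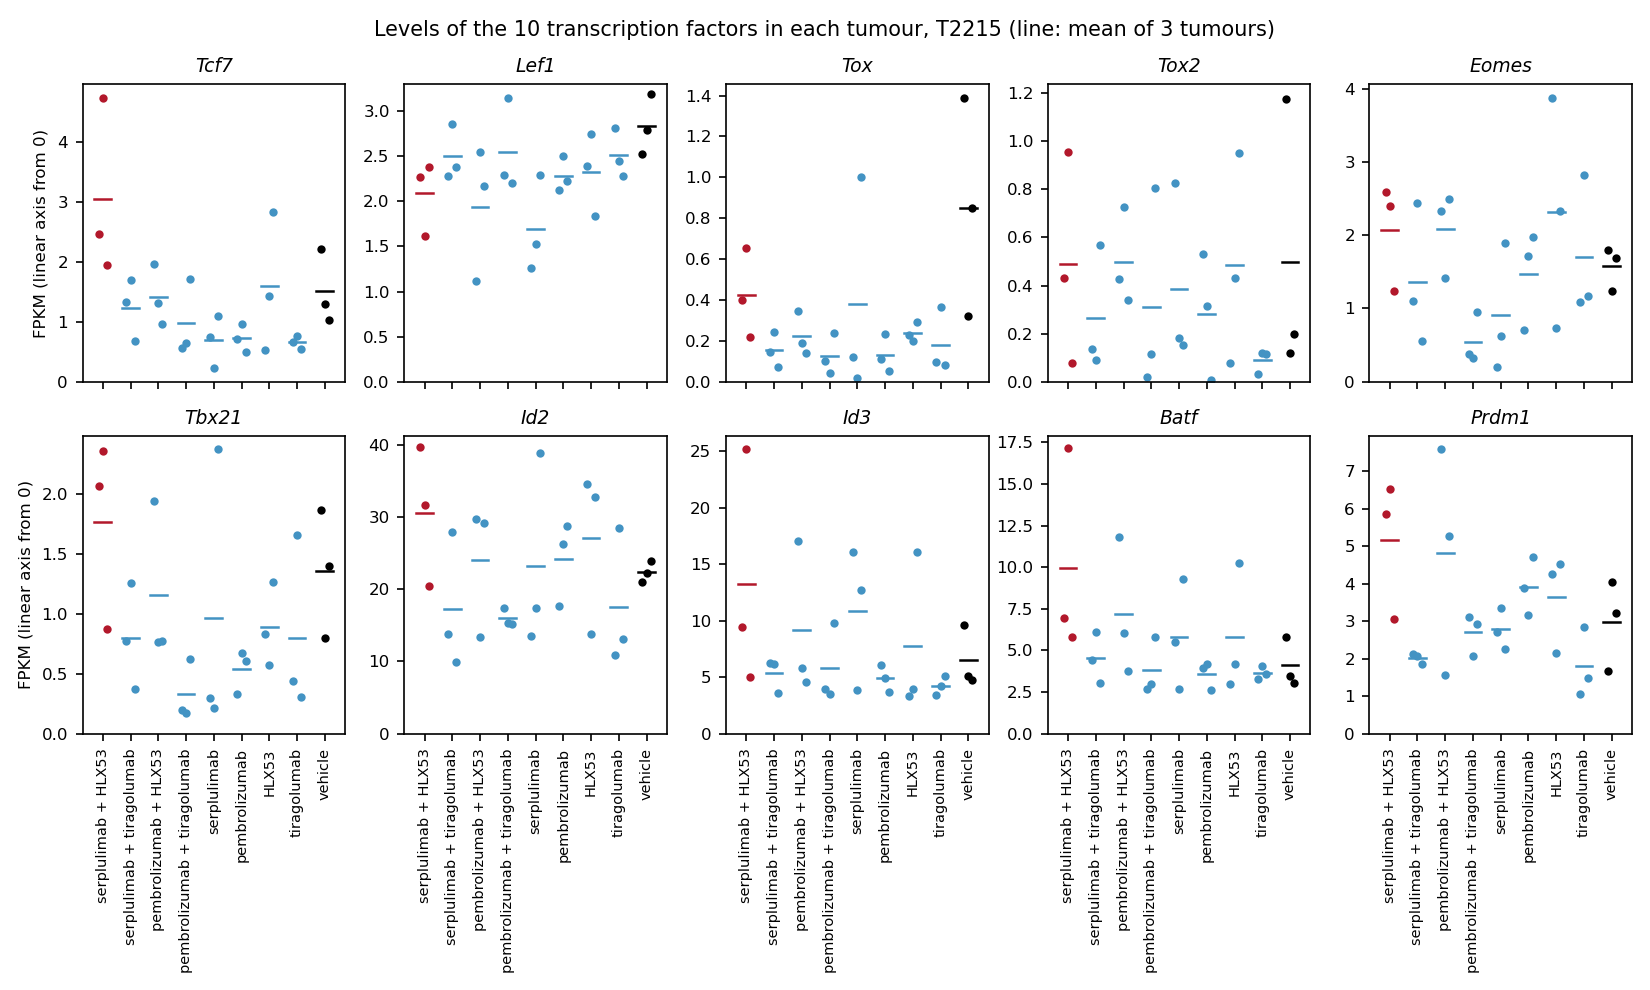
FPKM of the 10 genes in each of the 27 tumours of T2215 (1 point per tumour, line at the mean of 3), serplulimab with HLX53 in red, the other antibody groups in blue and vehicle in black, each panel with its own axis from 0. Single tumours set several group means, such as replicate 2 of serplulimab with HLX53 for Id3 (25.2 FPKM) and Batf (17.1 FPKM), and most groups overlap vehicle.

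In T2215 none of the factors passed in any of the 13 comparisons. By limma 0 of 10 were called in each, with or without the trend. Of all 14914 genes tested, 0.0134% were called for pembrolizumab with tiragolumab against vehicle, for serplulimab with HLX53 against that pair and for the presence of a TIGIT antibody, 0.00671% for pembrolizumab with HLX53 against vehicle, and 0% in the other 9. At an unadjusted p under 0.05, serplulimab against vehicle had 2 of the 10 factors (12.4% of all genes), pembrolizumab 1 (1.01%), HLX53 1 (1.35%) and tiragolumab 1 (0.939%). Among the pairs, serplulimab with HLX53 against vehicle had 1 (18.3% of all genes), serplulimab with tiragolumab 1 (1.01%), pembrolizumab with HLX53 2 (6.43%) and pembrolizumab with tiragolumab 3 (4.39%).

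For serplulimab with HLX53 against vehicle, Batf had the smallest p. It had 6.97, 17.1 and 5.80 FPKM with the pair and 5.81, 3.47 and 3.05 FPKM with vehicle, so that replicate 3 of the pair fell just inside the vehicle range, and the log2 difference was 1.07 (SE 0.48, 95% interval 0.08 to 2.07, limma adjusted p = 0.258). Tcf7 had 2.46, 4.72 and 1.95 FPKM with the pair, against 2.21, 1.30 and 1.03 FPKM with vehicle, a log2 difference of 0.78 (95% interval −0.06 to 1.62). Id3 had 9.41, 25.2 and 4.99 FPKM with the pair and 9.65, 5.13 and 4.70 FPKM with vehicle, where 1 tumour lay far above and the others within the range of vehicle (95% interval of the log2 difference −0.54 to 2.03).

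Tox was highest in the vehicle group of T2215. Its group means lay between 0.127 and 0.425 FPKM in the 8 antibody groups, and it had 1.39, 0.320 and 0.848 FPKM with vehicle. Its fitted difference from vehicle was below 0 in all 8, from −0.49 with serplulimab and HLX53 to −1.04 with pembrolizumab and tiragolumab, and it had the smallest p of the factors in 6 of them. These comparisons share the 3 vehicle tumours, and none passed (limma adjusted p of 0.378 to 1). The vehicle tumours with the high Tox values, replicates 1 and 3, also had the higher T cell scores of that group, which ranged from 1.19 to 2.49.

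Pembrolizumab with tiragolumab gave the lowest group means of Eomes and Tbx21 in T2215. Eomes had 0.374, 0.320 and 0.947 FPKM with this pair, against 1.80, 1.24 and 1.69 FPKM with vehicle, all below (log2 difference −1.03, SE 0.48, limma adjusted p = 1). Tbx21 had 0.194, 0.171 and 0.619 FPKM, against 1.86, 0.801 and 1.39 FPKM with vehicle, also all below (−1.16, SE 0.47, limma adjusted p = 1). In this comparison 4 of 10 factors lay wholly below vehicle, as did 11% of all genes tested. Against it, serplulimab with HLX53 had Tcf7, Eomes, Tbx21 and Id2 wholly above, 4 of 10 where 10.8% of all genes were, and 4 of 10 had an unadjusted p under 0.05, as did 21.3% of all genes. Tcf7 had the smallest p of them, with 0.567, 0.651 and 1.72 FPKM under pembrolizumab and tiragolumab (log2 difference 1.27, SE 0.40, limma adjusted p = 0.222). The T cell scores were 1.49, 2.42 and 2.98 with serplulimab and HLX53, wholly above the 0.213, 0.287 and 1.14 with pembrolizumab and tiragolumab, and 1.19, 1.89 and 2.49 with vehicle; their part in these differences was not tested.

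Pooled over arms with and without a PD-1 antibody, the HLX53 groups had higher fitted levels than the tiragolumab groups for 9 of 10 factors, as for 45.2% of all genes tested, with Lef1 the exception. By limma 0 of 10 passed (0% of all genes called), although 6 of 10 had an unadjusted p under 0.05, as did 26.6% of all genes. Prdm1 had the smallest p, with a mean of 4.54 FPKM over the 9 HLX53 tumours and 2.17 FPKM over the 9 tiragolumab tumours, a log2 difference of 0.84 (SE 0.23, limma adjusted p = 0.155). It passed by limma when replicate 2 of pembrolizumab with HLX53 was left out (1.03, adjusted p = 0.0402). With each library left out in turn, 0% to 0.148% of all genes passed in this comparison. Tcf7, Eomes, Tbx21, Id2 and Batf followed with log2 differences of 0.65 to 0.72 and adjusted p of 0.155 to 0.162. The T cell score was 1.04 to 2.98 over the HLX53 tumours and 0.213 to 2.02 over the tiragolumab tumours, and its part in these differences was not tested. The presence of a PD-1 antibody, the presence of a TIGIT antibody, and serplulimab against pembrolizumab arms gave 0 of 10 factors at an unadjusted p under 0.05, where 7.28%, 6.62% and 9.51% of all genes were.

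Across tumours, the list with the highest r differed between factors, and several factors followed many lists at once. Relations were computed over the 27 tumours of T2215 and, in T2106, over the 14 tumours that did not stand apart by fat genes, since a pooled value would join 2 clusters. There were 180 relations of a factor with a list, each with a permutation test of 100000 resamples, in which the smallest p is 1e-05. Whether 2 relations of a factor differ was not tested. A relation of a factor with a list at that p had an adjusted p of 7.83e-05. Tbx21 followed the T cell markers most closely, with r = 0.981 and rho = 0.969 in T2215 (permutation p = 1e-05, adjusted p = 7.83e-05 for r) and r = 0.938 and rho = 0.912 in T2106 (permutation p = 2e-05 each, adjusted p = 0.000129 for r). With the 2 tumours most distant from the median score left out, r was 0.975 in T2215 and 0.909 in T2106, and for deviations from the group means it was 0.985 and 0.915. Both mouse CD8 chain genes, Cd8b1 and Cd8a, were among the 3 genes nearest to Tbx21 of 12874 compared, with r of 0.974 and 0.969 in T2215, beside Tbc1d10c at 0.980.

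Tox followed the T cell markers with r = 0.820 and rho = 0.896 in T2215 (permutation p = 1e-05 each) and r = 0.704 and rho = 0.732 in T2106 (permutation p = 0.00582 and 0.00395, adjusted p = 0.014 for r). Without the 2 farthest tumours r was 0.768 and 0.814. The nearest gene to Tox was Pdcd1, by its mouse symbol in mice that carry human PD-1. Its r was 0.903 in T2215 and 0.812 in T2106, and Pglyrp2 followed. Tox and Tbx21 went together with r = 0.824 (rho = 0.905) in T2215 and 0.642 in T2106. Eomes was closer to the effector genes, with r = 0.967 and rho = 0.953, and to the natural killer cell markers, with r = 0.932, than to the T cell markers, with r = 0.767, all in T2215 at the smallest permutation p. In T2106 these r were 0.749 (permutation p = 0.00207), 0.657 (0.0107) and 0.374 (0.188), and the effector value without the 2 farthest tumours was 0.472. The genes nearest to Eomes were Gzmb, Il2rb and Txk, with r of 0.980, 0.975 and 0.968 in T2215, of which Gzmb is itself in the effector list.

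**Figure D4:**
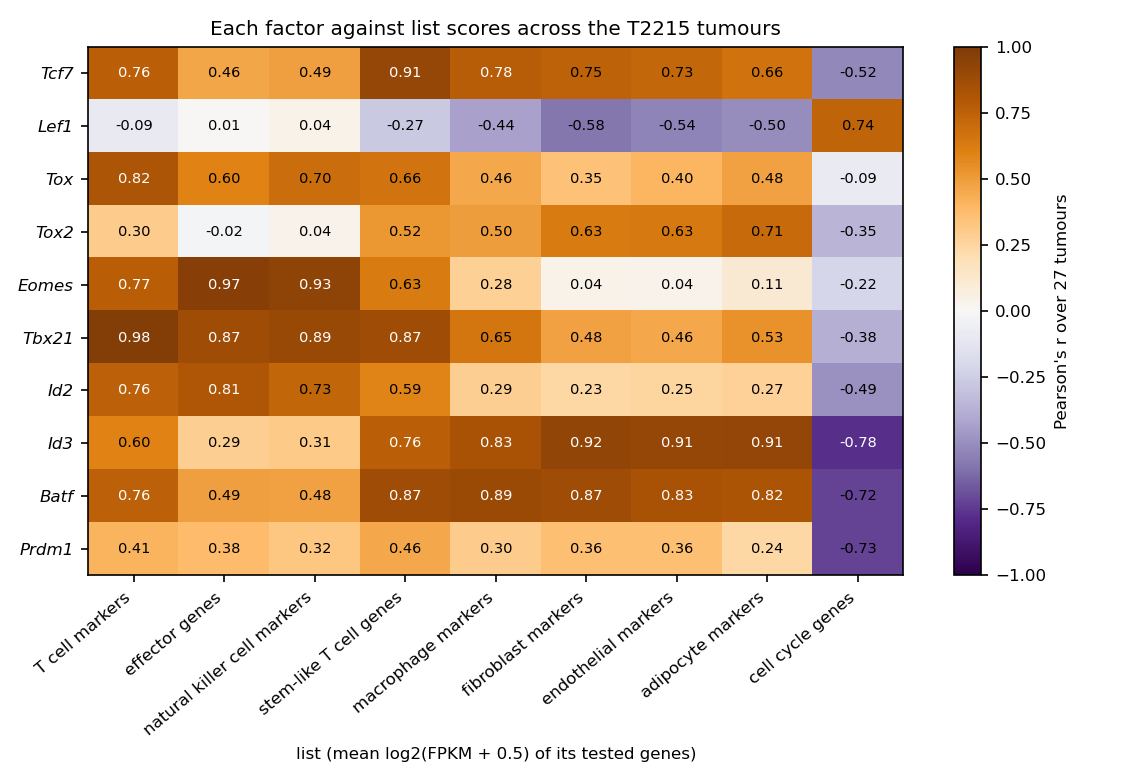
Pearson's r of each factor (rows) with the scores of 9 gene lists (columns) over the 27 tumours of T2215. The row of Tbx21 peaks at the T cell markers (0.98), that of Eomes at the effector genes (0.97) and that of Id3 at the fibroblast markers (0.92), while Lef1 is highest for the cell cycle genes (0.74).

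Tcf7 went with the stem-like list, with r = 0.907 and rho = 0.881 in T2215 (permutation p = 1e-05) and r = 0.879 and rho = 0.736 in T2106 (permutation p = 0.00035 and 0.0033, adjusted p = 0.00129 for r), more than with the T cell markers, at r of 0.761 and 0.723. In T2106 both leaned on the 2 farthest tumours, since without them r was 0.529 with the stem-like list and 0.420 with the T cell markers. The genes nearest to Tcf7 were Flt3, a receptor of dendritic cells and progenitors, with r of 0.923 in T2215 and 0.895 in T2106, Cxcr3, a chemokine receptor of activated T cells, with 0.919 and 0.935, and Scly, with 0.913 and 0.667. Tcf7 followed the macrophage, fibroblast and endothelial markers too, with r of 0.778, 0.748 and 0.725 in T2215.

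Lef1, the relative of Tcf7, did not share this pattern. Its r with the T cell markers was −0.09 in T2215 (permutation p = 0.674) and −0.33 in T2106 (permutation p = 0.253), and its r with Tcf7 was −0.14 in T2215 (permutation p = 0.473). In T2215 it was higher where the cell cycle genes were higher (r = 0.740, rho = 0.703, permutation p = 7e-05 for r and 5e-05 for rho, adjusted p = 0.00035 for r, 0.632 without the 2 farthest) and lower where the fibroblast markers were higher (r = −0.58, permutation p = 0.00166, adjusted p = 0.0046), though by rank the second relation was weaker (rho = −0.37, permutation p = 0.0572). In T2106 the cell cycle value was 0.406 (permutation p = 0.149), and 0.007 without the 2 farthest tumours, so the relation was not seen there. The 3 genes nearest to Lef1 were Hmgcs1, Def6 and Eefsec, at r of 0.811, 0.802 and 0.787 in T2215 and −0.05, 0.750 and 0.698 in T2106.

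**Figure D5:**
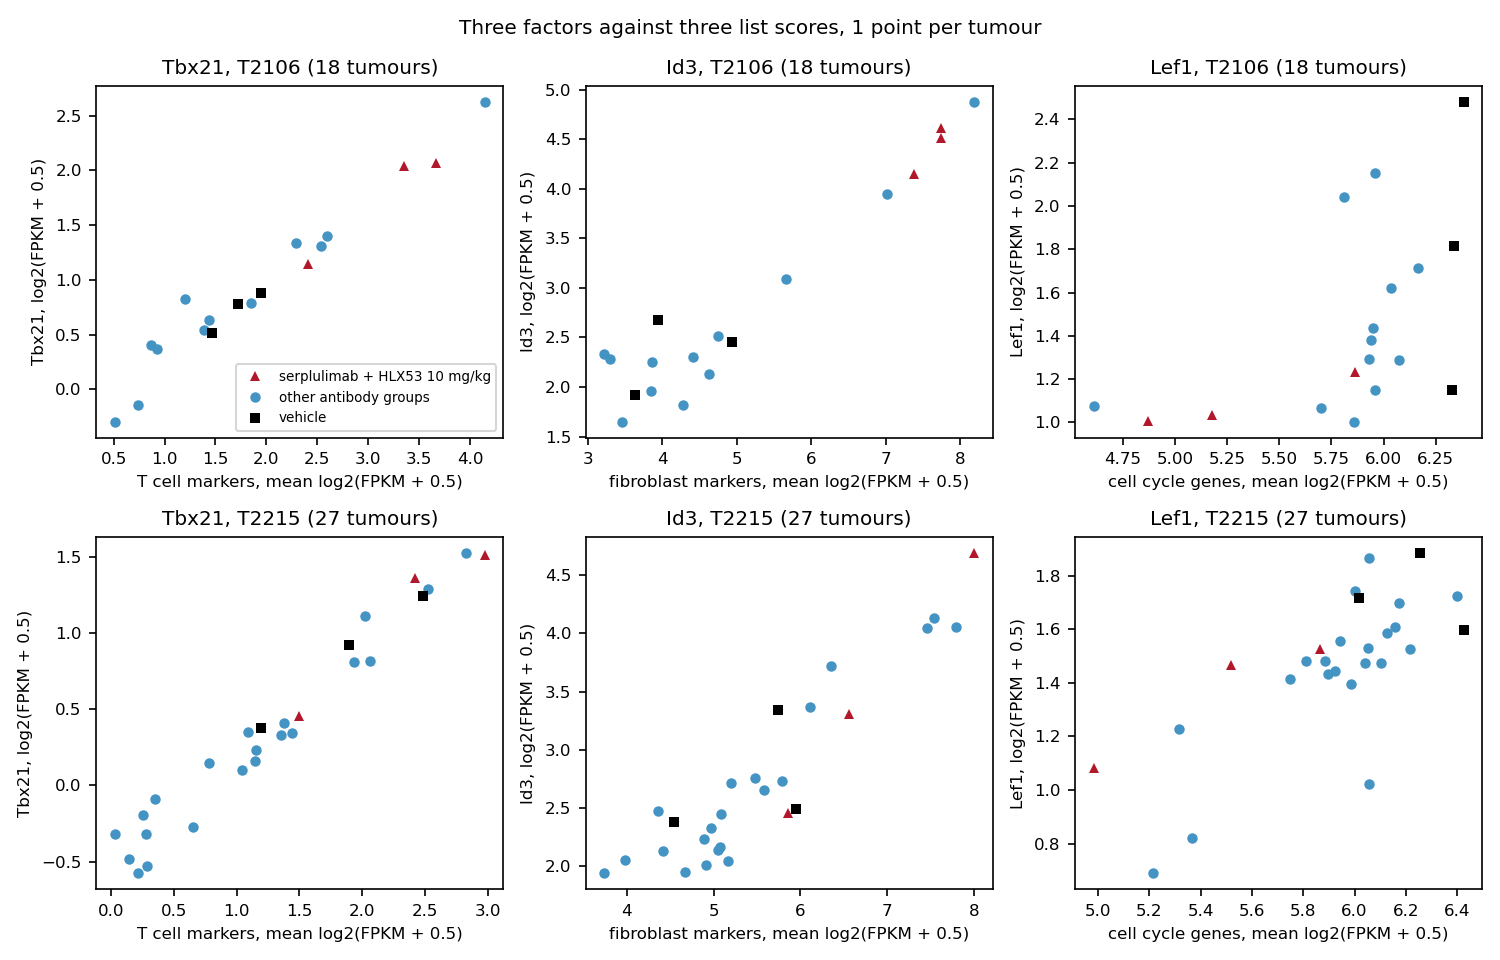
Tbx21 against the T cell marker score, Id3 against the fibroblast marker score and Lef1 against the cell cycle score, all as log2(FPKM + 0.5), with 1 point per tumour for the 18 tumours of T2106 (top) and the 27 of T2215 (bottom). Serplulimab with HLX53 at 10 mg/kg is shown as red triangles, the other antibody groups as blue circles and vehicle as black squares; in the top middle panel the 3 triangles lie at fibroblast scores of 7.38 to 7.74, between a circle at 7.01 and a circle at 8.19.

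Id3 followed both stromal and T cell markers. In T2215 its r was 0.923 with the fibroblast markers (rho = 0.869), 0.915 with the adipocyte markers, 0.910 with the endothelial markers and 0.829 with the macrophage markers, each at the smallest permutation p, and 0.596 with the T cell markers (permutation p = 0.00087), or 0.766 without the tumour with the high muscle score. In the 14 tumours of T2106 the fibroblast value was 0.831 (permutation p = 0.00131), but 0.318 without the 2 farthest, while the endothelial value was 0.841 (permutation p = 0.00042) and 0.756 without them, and the T cell value was 0.723 (permutation p = 0.00156), or 0.498 without the 2 farthest. Batf followed such markers as well, with r of 0.888 with the macrophage markers, 0.871 with the stem-like genes, 0.868 with the fibroblast markers and 0.755 with the T cell markers in T2215 (permutation p = 1e-05 each). In T2106 these were 0.915, 0.932, 0.768 and 0.801, of which the fibroblast value was 0.210 without the 2 farthest tumours (rho = 0.481 with them, permutation p = 0.0844). Id3 and Batf were the pair of factors with the highest r in T2215, with r = 0.908 and rho = 0.864 in T2215 (permutation p = 1e-05, adjusted p = 0.00018 over 90 relations between factors) and r = 0.852 in T2106 (permutation p = 0.00048). Tcf7 and Batf went together as well, with r of 0.847 and rho of 0.871 in T2215 and r of 0.886 in T2106, and in T2106 the pair with the highest r was Tcf7 and Id3 (r = 0.921, rho = 0.846, permutation p = 1e-05 for r), which had 0.723 in T2215. The genes nearest to Batf were Cfp, properdin of myeloid cells, Gpr55 and H2afj, with r of 0.955 to 0.963 in T2215. Those nearest to Id3 were L3hypdh, Tril and Hoxc8, with r of 0.967 to 0.973 and medians of 0.185 to 0.413 FPKM.

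Id2 went with the effector genes, with r = 0.812 and rho = 0.830 in T2215 (permutation p = 1e-05) and r = 0.804 and rho = 0.644 in T2106 (permutation p = 0.00041 and 0.0155, adjusted p = 0.00143 for r), and with Eomes, at 0.789 and 0.724. Gem, Rgs1 and Pim1, genes switched on by activation of lymphocytes and other cells, were nearest to Id2, with r of 0.886 to 0.897 in T2215 and 0.861 to 0.908 in T2106. Prdm1 followed neither T cell nor stromal markers past the threshold in T2215 (r = 0.413 with the T cell markers, adjusted p = 0.0594) and ran against the cell cycle genes, with r = −0.73 in T2215 (rho = −0.65, permutation p = 3e-05) and −0.71 in T2106 (rho = −0.61, permutation p = 0.00215 for r, adjusted p = 0.00578), or −0.60 and −0.48 without the 2 farthest tumours. Id3 was also high where the cell cycle genes were low. In T2215 its highest values were 25.2, 17.1, 16.1 and 16.0 FPKM. Those tumours had the lowest cell cycle scores, 4.98, 5.21, 5.37 and 5.32. The genes nearest to Prdm1, Zc3h12a, Atf3 and Nfkbia, are inducible by stress and NF-kappaB, with r of 0.871 to 0.889 in T2215 and 0.832 to 0.856 in T2106. Tox2 had r = 0.300 with the T cell markers in T2215 (permutation p = 0.128) and 0.707 with the adipocyte markers (permutation p = 6e-05), and in T2106 0.422 (permutation p = 0.134) and 0.843 (permutation p = 0.00024). By rank the adipocyte relation was rho = 0.745 and 0.829. The 14 tumours of T2106 leave out all 4 in which Tox2 reached 0.5 FPKM, so its values there lay at or below 0.396 FPKM and the T2106 relations of Tox2 are no more than a description. The genes nearest to Tox2 were Tmprss2, Ptn and Cited1, with r of 0.920 to 0.938 in T2215 and 0.610 to 0.809 in T2106. Leaving out the T2215 tumour with the high muscle score raised the value of Tcf7 with the fibroblast markers to 0.872, and kept Tbx21 with the T cell markers at 0.982. The tumours of a table share the normalization, and a list rests on marker levels in bulk RNA, so these relations do not place a factor in a cell type.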

How the data were processed

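Total RNA of 45 tumours was sequenced, 3 in each of 15 groups, with groups taken from the sample titles; nothing in the labels ties replicate numbers to shared animals or days, and p-values measure spread between these tumours. The deposited tables hold log2 FPKM, per the file headers, 1 table for each of 2 experiments, normalised separately and never pooled here. Builds mm10, hg19 and GRCh37 and the programs STAR, Bowtie, Trimmomatic and FastQC appear in the submitters' processing notes with no version and no role; which program computed FPKM, and the strand of counting, are not given in the sources used here. FPKM summed to 678636 to 911201 per library. Counts were not used here, so read depth, and with it counting error, is unknown.

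After the log was undone, 0.5 FPKM was added and log2 taken again, a scale that understates changes of low genes. Genes with 0.5 FPKM or more in at least 3 libraries entered limma 3.58.1 (R 4.3.3; lmFit, contrasts.fit, eBayes with trend), fitted with all groups of an experiment, with Benjamini-Hochberg adjustment over all genes tested and a threshold of 0.05, in 20 comparisons. The fit was tested on simulated data with known changes. For correlations (Pearson's r, Spearman's rho) permutation tests were two-sided, with 100000 resamples, adjusted over 180 relations with lists and 90 between factors. Only the T cell list and all tumours had been planned for them: the 8 other lists, the pairs, the 14 tumours of T2106 and the value without the muscle-rich tumour were added after the data were seen. All 10 factors are named; for each, the 3 genes with the highest r in T2215 were named, gene models and receptor segments left out and 1 gene not reported here, and of other lists at most 4 called genes. Gene names come from the tables, coordinates from GENCODE M21 and promoters from RefSeq. The factors and the 18 other lists were chosen with earlier results of these data known. Python 3.11.15 with numpy 2.4.6 was used beside R.

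The listed gene Cd244a had no row by that symbol and was not analysed here. Among others Tox3, a TOX relative, and the T cell gene Trat1 had a row but did not pass the filter in either experiment. Same-numbered tumours of different groups deviated together (r over 0.1) in 11 of 45 pairs in T2106 and 42 of 108 in T2215, so the numbers were not taken to pair tumours. Alternatives were other pseudocounts and filters, median centring, only the groups compared, no trend, a replicate block, T cell or adipocyte score covariates, and each library left out.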

Additional observations from a re-analysis of the deposited data

Results flagged for a closer look

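The treatments given in both experiments were serplulimab, HLX53, the pair of both at 10 mg/kg, and pembrolizumab with tiragolumab. All 10 factors were looked at in each of them. For 3 factors, under 1 treatment each, every treated tumour lay on one side of the vehicle mean in T2106 and on the other in T2215. The share of all genes that meet this rule was not computed here. The differences between the experiments were not tested. Tbx21, the T-bet gene, with HLX53 minus vehicle had a log2 difference of 0.261 in T2106 and −0.406 in T2215. Its HLX53 tumours overlapped vehicle in both, with 1.23 to 2.03 FPKM against 0.928 to 1.34 FPKM in T2106. In T2215 they had 0.570 to 1.26 FPKM against 0.801 to 1.86 FPKM. Eomes with pembrolizumab and tiragolumab minus vehicle had 0.380 in T2106 and −1.03 in T2215. Id2 with the same pair minus vehicle had 0.493 in T2106 and −0.474 in T2215. None of these 6 log2 differences passed within its experiment by limma (adjusted p of 0.967 to 1).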

How the results depend on the processing

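Of 386 values recomputed for the number of factors past the threshold, 371 stayed within 1.5 times the reported count. Most of these belong to comparisons where the reported count was 0 and stayed 0, so the total says little about the 2 comparisons with calls. With the T cell score as a covariate the count was 0 for serplulimab with 10 mg/kg HLX53 against vehicle and against pembrolizumab with tiragolumab. It was 1 each for serplulimab, the 5 mg/kg pair and pembrolizumab with tiragolumab against vehicle. The shares of all genes called in those fits are not given here, so a count of 1 is only a description. With the adipocyte score the count was 0 in both comparisons of the 10 mg/kg pair. The adipocyte covariate turned the 10 mg/kg pair against pembrolizumab with tiragolumab to −0.125 for Batf, −0.163 for Id3, −0.543 for Tcf7 and −0.186 for Tox, and Batf against vehicle to −0.00736; the T cell covariate gave −0.0144 for Tcf7 and −0.178 for Tox. These covariates run with the groups, so they cannot be told apart from treatment. With no filter on low values 2 factors passed for the 10 mg/kg pair against vehicle, where 7.27% of all genes did; far more genes are then tested. With each library left out in turn the count ranged from 1 to 8 for that comparison (3.35% to 49.1% of all genes). Against pembrolizumab with tiragolumab it ranged from 3 to 8 (10.8% to 48.4%). For the 5 mg/kg pair against vehicle it ranged from 0 to 5 (0.0796% to 40.4%). Between the doses it ranged from 0 to 3 (0.00664% to 38.9%), and for HLX53 against tiragolumab arms from 0 to 1 (0% to 0.148%). With the replicate block 5 and 6 factors passed in the 2 comparisons with calls and 0 in the others. Shares of all genes for that fit are not given here. Depth is unknown, and Tox and Tox2 lie near the filter, so their differences are the least certain.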
